A study of Mus musculus with 8 samples.

Results

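The data are ATAC-seq peak lists of whole mouse hearts at E10.5, and the subject is 56 genes of the TGF-beta and BMP signalling pathways. The assay uses Tn5 transposase to cut and tag DNA that is open in nuclei. A peak was taken as belonging to a pathway gene if the nearest transcription start site (TSS) of any protein-coding gene was that gene's own, or if the peak lay within 10 kb of the gene body (GENCODE M21 annotation, mm10 build). By this rule 108 of the 15736 listed peaks belonged to the pathway, and no peak belonged to more than 1 of the 56 genes. The nearest coding TSS was another gene's for 11 of the 108 peaks, and 56 of the 108 lay within 10 kb of their gene's body.

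The genotypes were WT and *Chd4-CMko*, with 4 samples each. In *Chd4-CMko* embryos floxed *Chd4*, which encodes the ATPase of the NuRD chromatin-remodelling complex, is deleted by *Tnnt2-Cre*, a Cre driven in cardiomyocytes. Neither genotype had a treatment, and per the methods the control embryos were littermates. Hearts were pooled within a sample, 3 per sample by the series design and by the study's methods for E10.5, and 4 by the sample protocol. From each pool 40000 viable cells of all cardiac types were taken. The study asked how accessibility changes when *Chd4* is lost, and deposited 1 list of 12991 peaks enriched in *Chd4-CMko* hearts, here called gained, and 1 list of 2745 peaks enriched in WT hearts, here called lost. The limit for enrichment was 2-fold per the methods. The lists pool the samples and hold no value for any single sample and no depth, so the spread between samples is unknown and no test between genotypes could be made. By the same rule *Chd4* had 2 gained and 0 lost peaks, and since the lists measure neither the deletion nor expression, the genotype and tissue labels could not be checked in them. In whole hearts, fewer cells of a type and less accessibility per cell cannot be told apart.

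TGF-beta and BMP ligands are secreted dimers that bring together type I and type II receptor kinases on the target cell. The activated receptors phosphorylate SMAD proteins, SMAD2 and SMAD3 for TGF-beta, activin and Nodal and SMAD1, SMAD5 and SMAD9 for BMPs, and these enter the nucleus with SMAD4. Secreted antagonists such as noggin, gremlin and follistatin bind the ligands, latent TGF-beta binding proteins store TGF-beta in the matrix, and SMAD6 and SMAD7 are inhibitory. In the embryonic heart BMP and TGF-beta signals from the myocardium act on the endocardium as the valve cushions form, and BMP10 promotes growth of the trabecular myocardium.

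Of the 56 pathway genes, 38 (67.9%, Wilson 95% interval 54.8 to 78.6%) had at least 1 gained peak, beside 37.4% of the 21951 protein-coding genes. At least 1 lost peak was listed for 11 of the 56 (19.6%, 11.3 to 31.8%), beside 10.8% of coding genes. Both kinds were listed for 9 genes, 16.1% of the 56 beside 6.36% of coding genes. Neither kind was listed for 16 genes, 28.6% beside 58.2% of coding genes. It follows from these counts that 29 had gained peaks alone and 2 had lost peaks alone. Intervals here and below cover counting error only, and neighbouring peaks or genes are not independent. Of the 108 peaks, 94 were gained, which is 87.0% (79.4 to 92.1%) beside 82.6% of all listed peaks. The share of gained peaks among the pathway's peaks thus lay near that of the whole series, while the shares of genes with a gained peak, a lost peak and both were above those of coding genes by this rule.

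**Figure D1:**
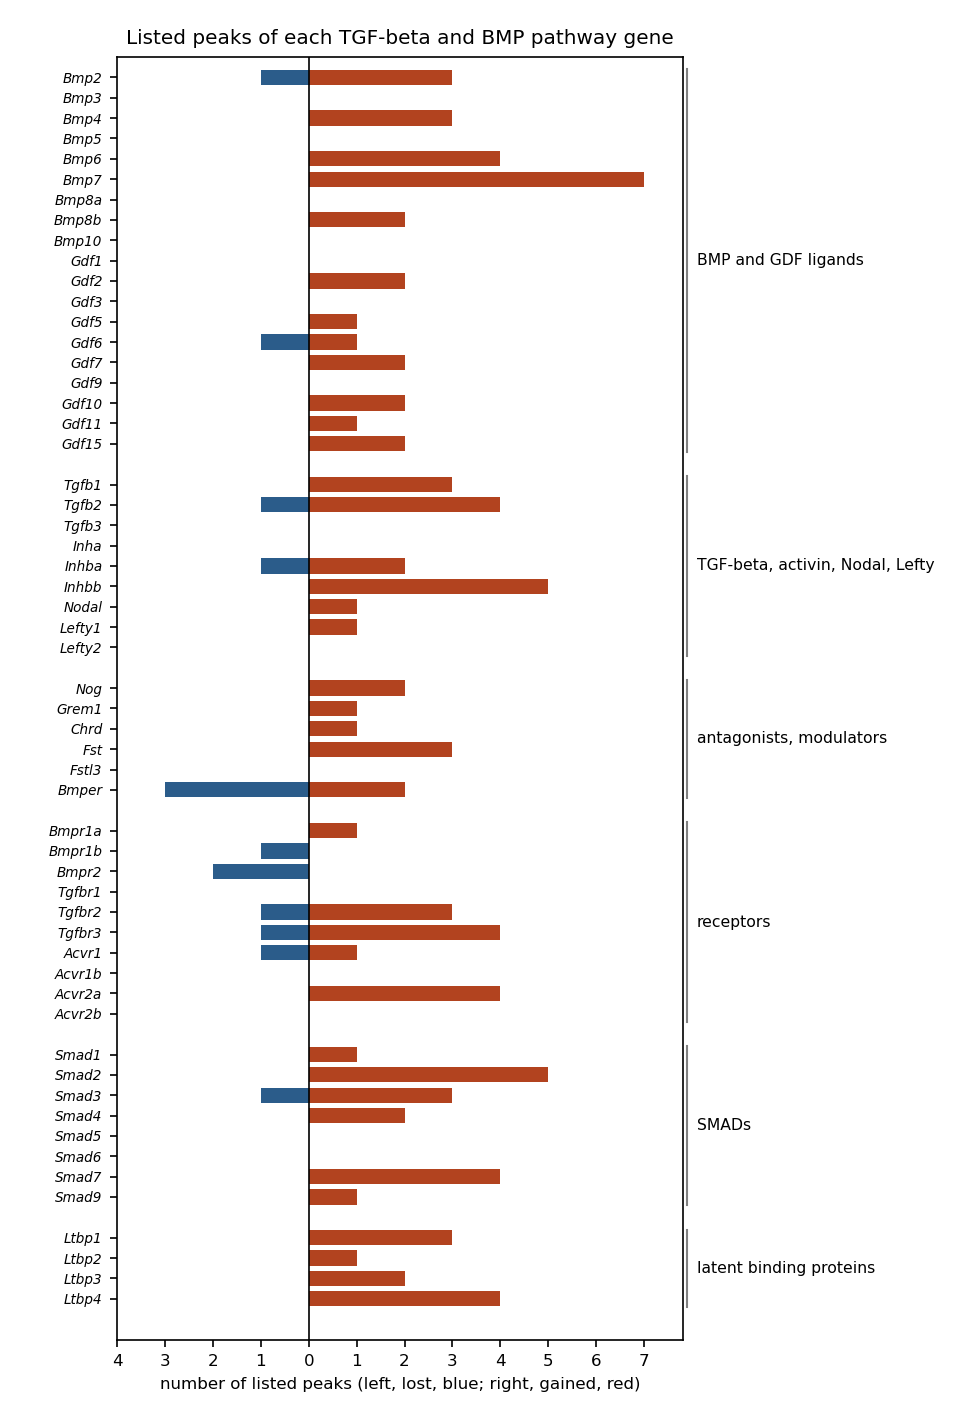
Number of listed peaks (horizontal axis) of each of the 56 pathway genes, grouped by role. Red bars to the right are gained peaks and blue bars to the left are lost peaks. *Bmp7* has the longest red bar, 7 peaks, and *Bmper* the longest blue bar, 3 peaks, and 16 genes have no bar.

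The gained peaks near a start site were counted by role. At least 1 gained peak lay within 3 kb of an own TSS for 19 genes (33.9%, 22.9 to 47.0%, beside 12.4% of coding genes). For 13 of these (23.2% of the 56, beside 8.19% of coding genes) the peak was within 3 kb of the 5′ end of the gene record, and all 13 were ligands or antagonists: *Bmp2*, *Bmp4*, *Bmp6*, *Bmp8b*, *Gdf5*, *Gdf7*, *Gdf10*, *Gdf11*, *Tgfb1*, *Inhbb*, *Nodal*, *Grem1* and *Fst*. That is 13 of 34 ligands and antagonists (38.2%, 23.9 to 55.0%) and 0 of 22 receptors, SMADs and latent binding proteins, for which a count of 0 allows up to 14.9%. For the other 6 genes, *Bmpr1a*, *Acvr1*, *Smad3*, *Smad4*, *Ltbp3* and *Ltbp4*, the TSS near the peak was that of a shorter transcript inside the gene. The split by role at the 5′ end was seen in the values and was not set beforehand. It was not seen among the other pathway genes given below, counted within 3 kb of any own TSS. There, 4 of 10 receptors and co-receptors had such a gained peak, 0 of 5 ligands and 3 of 23 antagonists and extracellular modulators. No lost peak lay within 3 kb of an own TSS of any of the 56 genes, beside 1.24% of coding genes.

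**Figure D2:**
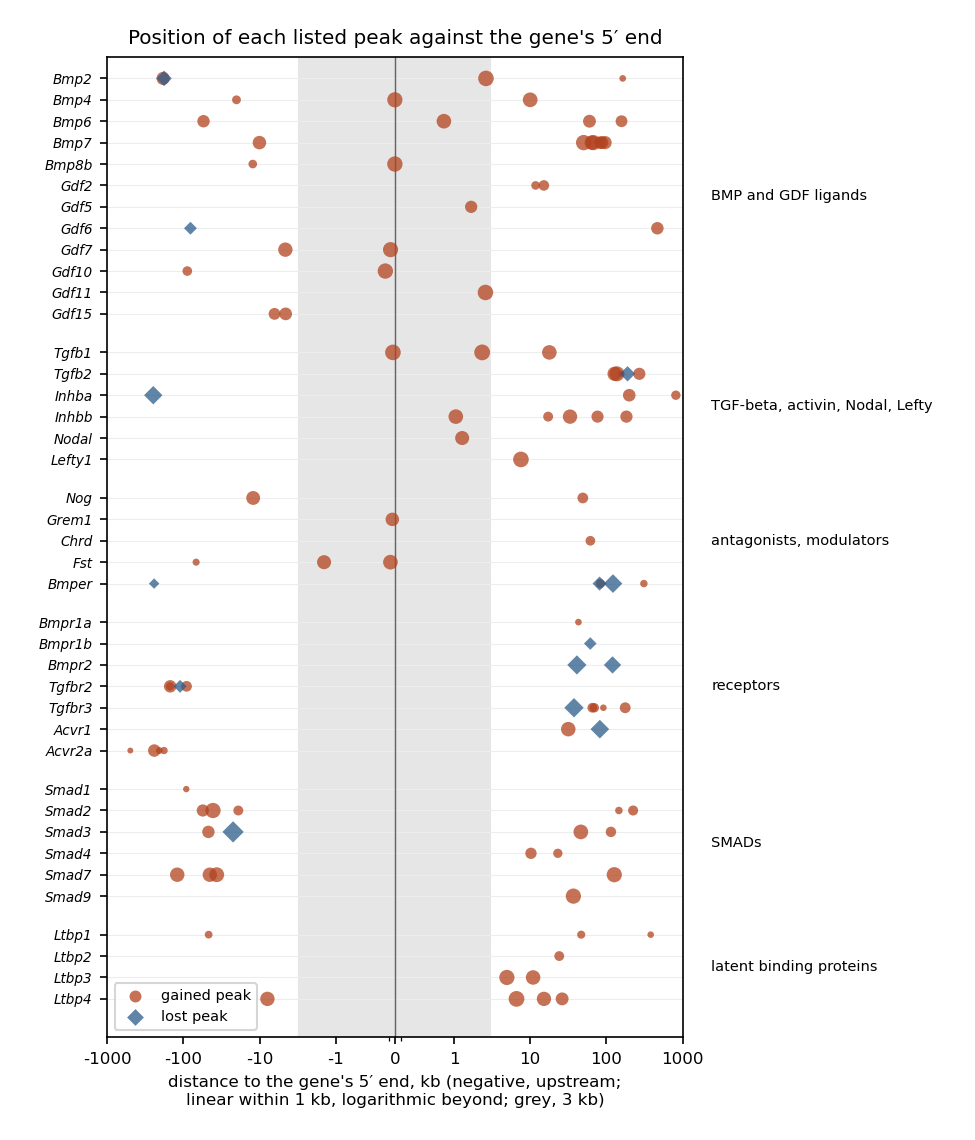
Distance in kb of each listed peak from the 5′ end of its gene (horizontal axis, linear within 1 kb and logarithmic beyond) for the 40 genes with a peak, grouped by role. Circles are gained and diamonds lost peaks, larger symbols have a higher score rank within their list, and grey marks 3 kb. The circles in the grey band belong to 13 ligands and antagonists, and no diamond lies in it.

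The sequences of the gained peaks closest to a gene's 5′ end, within 200 bp of it, are given here as examples. With them are the pathway peak of highest score in either list and the closest gained and lost pair. All are from the GRCm38 (mm10) reference, on the strand of the gene and 5′ to 3′. Capitals mark GGGCGG (the GC box bound by KLF and SP factors), CCAAT (bound by NF-Y), GGCGCC (a BMP response element), CAGACA (the CAGA box bound by SMAD3 and SMAD4) and AGATAA (bound by GATA factors), on either strand. The *Bmp4* and *Bmp8b* peaks cover a TSS and are shown up to the base before it. The peaks near the 5′ end of *Bmp2*, *Bmp6*, *Gdf5*, *Gdf11*, *Inhbb* and *Nodal* lay farther from it and are not printed. Of these, the peaks of *Gdf5* and *Gdf11* held no GGGCGG and the others did. GGGCGG was present in 46.1% of all gained peaks within 3 kb of a coding TSS.
Bmp4, chr14:46390670-46390785, minus strand: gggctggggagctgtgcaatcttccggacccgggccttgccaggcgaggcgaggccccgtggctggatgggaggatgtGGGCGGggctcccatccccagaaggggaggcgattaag
Bmp8b, chr4:123105024-123105164, plus strand: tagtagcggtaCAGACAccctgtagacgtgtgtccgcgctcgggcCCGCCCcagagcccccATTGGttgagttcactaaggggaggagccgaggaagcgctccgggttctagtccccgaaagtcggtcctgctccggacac
Gdf7, chr12:8302027-8302177, minus strand: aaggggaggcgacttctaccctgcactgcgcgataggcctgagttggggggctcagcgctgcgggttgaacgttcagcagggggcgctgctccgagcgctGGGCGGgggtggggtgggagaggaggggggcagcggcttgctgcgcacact
Gdf10, chr14:33923276-33923426, plus strand: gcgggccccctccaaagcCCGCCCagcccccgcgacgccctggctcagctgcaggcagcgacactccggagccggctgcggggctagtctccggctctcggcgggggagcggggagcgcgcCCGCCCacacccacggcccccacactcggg
Tgfb1 at the 5′ end, chr7:25686819-25686969, plus strand: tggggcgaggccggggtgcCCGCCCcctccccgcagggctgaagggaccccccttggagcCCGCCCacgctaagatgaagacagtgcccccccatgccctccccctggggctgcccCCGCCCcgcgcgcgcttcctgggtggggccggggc
Tgfb1 at the inner TSS, chr7:25689339-25689489, plus strand: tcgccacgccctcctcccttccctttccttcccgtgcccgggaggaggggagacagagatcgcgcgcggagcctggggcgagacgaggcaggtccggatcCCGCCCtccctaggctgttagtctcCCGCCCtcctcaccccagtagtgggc
Grem1, chr2:113758689-113758839, minus strand: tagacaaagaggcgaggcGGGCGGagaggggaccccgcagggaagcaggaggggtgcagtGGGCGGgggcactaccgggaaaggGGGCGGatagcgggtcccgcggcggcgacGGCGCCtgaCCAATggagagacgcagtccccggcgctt
Fst, chr13:114459026-114459176, minus strand: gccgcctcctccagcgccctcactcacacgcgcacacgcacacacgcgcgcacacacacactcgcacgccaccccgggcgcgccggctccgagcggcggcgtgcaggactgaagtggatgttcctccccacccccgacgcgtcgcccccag
Bmper gained, chr9:23306436-23306586, plus strand: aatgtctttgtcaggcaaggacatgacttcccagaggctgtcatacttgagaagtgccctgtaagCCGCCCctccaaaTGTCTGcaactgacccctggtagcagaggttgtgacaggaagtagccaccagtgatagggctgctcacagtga
Bmper lost, chr9:23304536-23304686, plus strand: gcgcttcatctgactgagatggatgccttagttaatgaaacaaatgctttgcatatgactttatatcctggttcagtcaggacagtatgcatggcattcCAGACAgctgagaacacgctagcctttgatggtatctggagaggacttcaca
Smad3 lost, chr9:63780231-63780381, minus strand: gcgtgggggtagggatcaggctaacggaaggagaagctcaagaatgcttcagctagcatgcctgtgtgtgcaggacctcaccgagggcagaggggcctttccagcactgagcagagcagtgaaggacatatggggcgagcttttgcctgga

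Among the 19 BMP and GDF ligands, 12 had a gained peak (63.2%, 41.0 to 80.9%, beside 37.4% of coding genes). Of these 12, 2 also had a lost one. For 2 of 19 the interval, 2.94 to 31.4%, holds the 10.8% of coding genes with a lost peak. *Bmp7*, a BMP made in the myocardium, had 7 gained peaks, the most of the pathway. Their scores, in the order of the plus strand, were 84, 75, 70, 193.5, 123.5, 212.5 and 92. A score is the value the authors deposited for a peak, on a scale that is not stated, and scores are described only within a list. The first 3 lay 10.7 to 23.9 kb beyond the 3′ end, the next 3 in the gene body (1 in a coding exon and 2 in introns), and the last 10033 bp upstream of the nearest *Bmp7* TSS. The strongest of them, at chr2:172889854-172890004, lay 50088 bp from that TSS. No *Bmp7* peak was thus near a start site, in contrast to *Bmp2*, *Bmp4* and *Bmp6*.

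*Bmp4*, which acts in the outflow tract and the second heart field, had a gained peak of score 197 over its TSS, at rank 1133 of the 12991 gained peaks. A second peak of score 145 lay 2834 bp beyond its 3′ end, 441 bp from the TSS of *Gm15217*, and the last, of score 37, lay 20072 bp upstream. *Bmp2*, the main BMP of the atrioventricular canal, had a gained peak of score 263 in an intron 2623 bp from its TSS (chr2:133554782-133554932, rank 530). Its other peaks were far away, gained ones of score 83 at 184674 bp upstream and of score 27 at 164075 bp downstream, and a lost one of score 32.8 at 179513 bp upstream (chr2:133372496-133372646). The far upstream gained and lost peaks of *Bmp2* were 5011 bp apart. *Bmp6* had 4 gained peaks, of which the strongest, of score 138, lay in a coding exon 828 bp from the 5′ end, with a GC content of 81.5%. The others scored 68.5 at 54392 bp upstream, 76 in an intron, and 61 at 3040 bp beyond the 3′ end, closer to a TSS of *Txndc5*.

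*Bmp8b* had a gained peak of score 213 over its TSS (rank 944) and a second of score 36 at 12263 bp upstream, and its neighbouring copy *Bmp8a* had none. How reads that match both copies were placed is not stated. *Gdf7* had a peak of score 187 that ended 73 bp upstream of its TSS and a second of score 123.5 at 4579 bp upstream. *Gdf10*, a relative of BMP3, had a peak of score 210.5 at 161 bp upstream and a second of score 41.5 at 88879 bp upstream. *Gdf11*, a relative of myostatin that acts in axial patterning, had its only peak, of score 248, in an intron 2582 bp from the TSS (chr10:128888986-128889136, rank 633). *Gdf5*, known from joint formation, had an intronic peak of score 66.5 at 1676 bp from the TSS. Of the peaks named here within 3 kb of the own 5′ end, all but that of *Gdf5* scored above 122.5, the median of all gained peaks within 3 kb of a coding TSS.

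The other BMP and GDF ligands had peaks away from their own start sites. *Gdf15*, a ligand induced by cell stress, had gained peaks of score 73.5 and 60.5 at 4537 and 6353 bp upstream. *Gdf2*, a circulating ligand of endothelial cells, had gained peaks of score 36 and 48.5 at 5596 and 8947 bp beyond its 3′ end, and both were closer to a TSS of *Rbp3*. *Gdf6* had only distant peaks, a gained one of score 69.5 at 467606 bp and a lost one of score 26 at 80758 bp (chr4:9763464-9763614), which its TSS received as the nearest one. *Bmp3*, *Bmp5*, *Bmp8a*, *Bmp10*, *Gdf1*, *Gdf3* and *Gdf9* had no listed peak. For *Bmp10*, the nearest gained peak lay 44783 bp from the gene body and the nearest lost one 333109 bp.

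Of the 9 ligands of the TGF-beta, activin, Nodal and Lefty group, 6 had a gained peak (66.7%, 35.4 to 87.9%). That interval holds the 37.4% of coding genes. *Tgfb1* had the gained peak of highest score in the pathway, 376.5, at rank 122 of 12991 (chr7:25689339-25689489). It lay 412 bp downstream of an inner *Tgfb1* TSS, in an exon of a non-coding transcript 2337 bp from the 5′ end. A second peak of score 273.5 (rank 471) ended 33 bp upstream of the 5′ end, and the last, of score 136, lay in a coding exon at the 3′ end, 11131 bp from the TSS of *Ccdc97*. The 3 peaks had a GC content of 78.8, 70.2 and 66.9% in that order along the gene, and each of them held GGGCGG.

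*Tgfb2* differed from *Tgfb1* in that no peak lay in its body or within 10 kb of it. Its gained peaks, of score 121.5, 170.5, 25 and 65, lay 45204, 54502, 72276 and 187848 bp beyond the 3′ end. Between the third and the fourth was a lost peak of score 32.4, at 106499 bp (chr1:186516143-186516293). *Tgfb3* had no listed peak, and the nearest gained one lay 12483 bp from its body, just outside the 10 kb window. TGF-beta2 and TGF-beta3 are the forms best known from the formation of the valves and the outflow tract.

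The activin subunit genes *Inhbb* and *Inhba* were also unlike. *Inhbb* had 5 gained peaks, of which the strongest, of score 138, lay in a coding exon 1053 bp from the TSS with a GC content of 82.8%. The other 4, of score 43.5, 125, 64.5 and 66, lay between 10409 and 176719 bp beyond the 3′ end. *Inhba* had gained peaks of score 71.5 and 40 at 197118 and 815240 bp from its TSS and a lost one of score 41.9 at 248570 bp upstream (chr13:15763131-15763281), and none within its gene. *Nodal*, the ligand of left-right patterning, had an intronic peak of score 110 at 1277 bp from its TSS. *Lefty1*, an inhibitor of Nodal, had a peak of score 279.5, the next highest of the pathway after those of *Tgfb1* and *Ltbp4*, but it covers the TSS of the neighbour *Tmem63a* and lies 4172 bp beyond the 3′ end of *Lefty1*. *Inha* and *Lefty2* had no listed peak.

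Of the 6 extracellular antagonists and modulators, 5 had a gained peak (83.3%, 43.6 to 97.0%, beside 37.4% of coding genes). *Fst*, which encodes follistatin, an activin antagonist, had peaks of score 143 and 109 at 75 and 1420 bp upstream of its TSS and a weak one of score 29 at 68015 bp upstream. *Grem1*, which encodes the BMP antagonist gremlin, had its only peak, of score 93, at 43 bp upstream. Its printed sequence holds GGGCGG 3 times, and CCAAT and GGCGCC once each, while that of *Fst* holds none of the marked letters. *Nog*, which encodes noggin, had peaks of score 103 at 12118 bp upstream and of score 50 at 47371 bp beyond its 3′ end. *Chrd*, which encodes chordin, had 1 peak of score 42, 58584 bp from its TSS. *Fstl3* had none.

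*Bmper*, which encodes a BMP-binding protein made by endothelial cells, was the only gene of the 56 with more lost than gained peaks among those with both. Its lost peaks scored 20.7, 28.9 and 43.2 (chr9:22980608-22980758, chr9:23304536-23304686 and chr9:23345214-23345364), and its gained peaks scored 39 and 30.5. The lost peak of score 28.9 and the gained peak of score 39 both lay in introns, 1750 bp apart, which was the closest pair of opposite direction in the pathway. At least 3 lost peaks were listed for 0.724% of coding genes. *Bmper* spans 262125 bp, and lost peaks were more common in long genes, as given below.

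Of the 10 receptor genes, 5 had a lost peak (interval 23.7 to 76.3%, beside 10.8% of coding genes) and 5 a gained peak (the same interval, beside 37.4%). Among coding genes of 50 to 150 kb and of 150 kb or more, the classes of 8 of the 10 receptors, 20.6% and 42.9% had a lost peak. *Bmpr2*, the type II BMP receptor, had 2 lost peaks and no gained one, of score 45.6 in an intron (chr1:59804414-59804564) and of score 38.1 at 4846 bp beyond the 3′ end (chr1:59883860-59884010). The latter was closer to a TSS of *Fam117b*. *Bmpr1b*, a type I BMP receptor, had 1 intronic lost peak of score 25.3 (chr3:142107813-142107963) and no gained one. These were the 2 pathway genes with lost peaks alone. *Acvr1*, a type I BMP receptor needed in the endocardial cushions, had a gained peak of score 132 in an intron 2877 bp from an inner TSS and a lost one of score 43.2 (chr2:58484917-58485067), also intronic and 50344 bp farther along the gene. That lost peak was closer to a TSS of *Gm17409*.

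*Tgfbr3*, the co-receptor betaglycan that presents TGF-beta2 in the cushions, had 4 gained intronic peaks of score 42, 40.5, 26.5 and 50.5 and 1 lost intronic peak of score 46.9 (chr5:107251898-107252048). *Tgfbr2*, the type II TGF-beta receptor, had 3 gained peaks of score 49.5, 70 and 34 and a lost one of score 26 (chr9:116285904-116286054), all between 90882 and 149721 bp upstream. *Acvr2a*, a type II activin receptor, had 4 gained peaks of score 21, 70, 28 and 30, between 179398 and 497689 bp upstream. *Bmpr1a*, the main type I BMP receptor of the myocardium, had 1 gained peak of score 27, 196 bp from an inner TSS and 42981 bp from the 5′ end. That peak lies wholly in repeat sequence, as do 1 of *Tgfbr3* (score 26.5) and 1 of *Acvr2a* (score 28), where short reads can be hard to place. *Tgfbr1*, *Acvr1b* and *Acvr2b* had no listed peak. Apart from that of *Acvr1*, every gained receptor peak scored at most 70.

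Of the 8 SMAD genes, 6 had a gained peak (75%, 40.9 to 92.9%, beside 37.4% of coding genes). Their median body was 62948 bp, and 54.4% of coding genes of 50 to 150 kb had a gained peak. *Smad7*, an inhibitory SMAD, had 4 gained peaks of score 128.5, 125, 156 and 190.5, of which the first 3 lay 120413, 44957 and 36486 bp upstream and the last 98641 bp beyond the 3′ end. All 4 stood between percentiles 79.4 and 90.5 of the gained list by score, and none was near a start site. *Smad2* had 5 gained peaks of score 65.5, 198.5, 43.5, 31 and 44.5, the first 3 upstream at 55582, 40829 and 18997 bp and the others beyond the 3′ end. *Smad3* had gained peaks of score 145 at 182 bp from an inner TSS, of score 68.5 at 46940 bp upstream and of score 47 at 3628 bp beyond the 3′ end, closer to a TSS of *Aagab*. Its lost peak, of score 69.8 at 22237 bp upstream, had the highest score among the pathway's lost peaks, at rank 307 of 2745. *Smad9* had 1 intronic peak of score 195, closer to a TSS of *Rfxap*. *Smad4*, the common partner, had 2 intronic peaks of score 39.5 and 55.5, the first 2351 bp from an inner TSS, and *Smad1* had 1 of score 25.5 at 91628 bp upstream. *Smad5* and the inhibitory *Smad6* had no listed peak.

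All 4 genes of the latent TGF-beta binding proteins had a gained peak (interval 51.01 to 100%, beside 37.4% of coding genes and 36.6 to 73.3% of those in their length classes) and none a lost one. *Ltbp4* had gained peaks of score 340.5, 76.5, 122 and 123.5. The strongest (chr7:27330938-27331088, rank 192), the second highest score of the pathway, lay in an intron 6604 bp from the 5′ end, and that of score 123.5 covers the TSS of *Shkbp1*. The peak of score 76.5 lay in an intron 620 bp from an inner TSS, and that of score 122 in a coding exon. *Ltbp3* had peaks of score 194 and 133 in coding exons 4935 and 10907 bp from the 5′ end, 106 and 1160 bp from inner TSSs. *Ltbp1* had 3 peaks of score 32, 33.5 and 26.5 and *Ltbp2* 1 of score 43, all low in the list. Members of this group thus ranged from the top to the bottom of the gained list.

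Gene length bears on these counts, since a longer gene has a longer window. The rule also gives a gene every peak nearest to its TSS, so the distance to neighbouring genes bears on them too. The length classes below do not adjust for that distance. Among coding genes under 10 kb, 23.9% had a gained and 4.19% a lost peak, and among those of 150 kb or more 73.3% and 42.9%. Of the 19 pathway genes under 10 kb, all of them ligands or antagonists, 12 (63.2%) had a gained and 0 a lost peak. In the class of 10 to 50 kb these were 11 and 3 of 17 pathway genes, beside 36.6% and 7.42% of coding genes. In the class of 50 to 150 kb they were 10 and 4 of 14, beside 54.4% and 20.6%, and from 150 kb on 5 and 4 of 6. The gap to coding genes was wide in the class under 10 kb, while the classes from 50 kb on hold too few pathway genes, 14 and 6, to set their shares (71.4% and 83.3%) apart from those of coding genes. The receptors had a median body of 91838 bp, beside 17403 bp for coding genes. Of the 10, *Acvr1b* (39618 bp) and *Acvr2b* (32878 bp) were under 50 kb and had no lost peak, and the other 8 were longer. The part of gene length in the receptors' lost peaks was not tested. Within the gene bodies and 10 kb around them, the pathway held 11.3 gained peaks per Mb, beside 6.78 for all coding genes, and 1.61 lost peaks per Mb, beside 1.41.

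**Figure D3:**
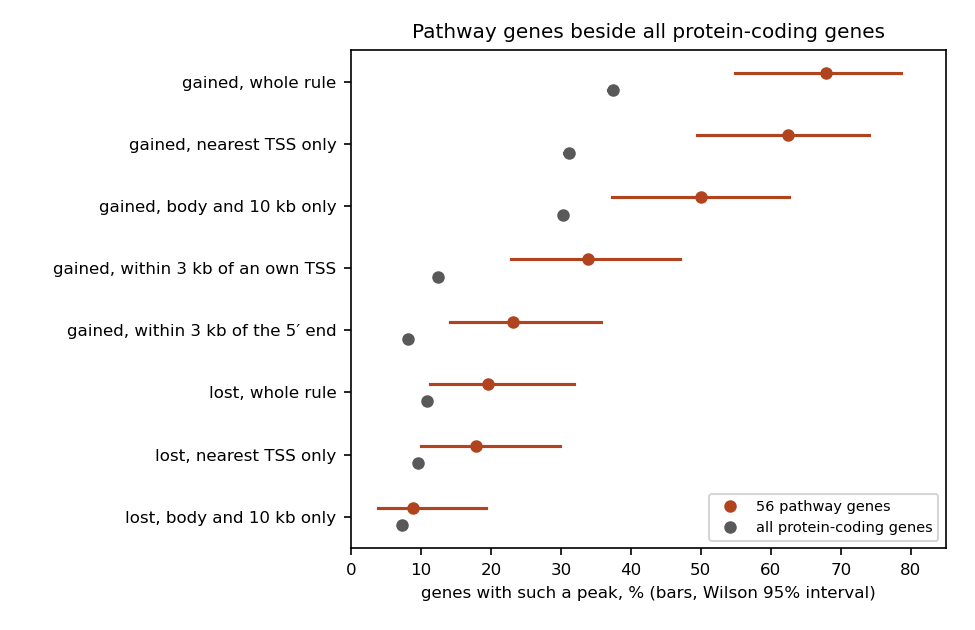
Share of genes in percent (horizontal axis) with a gained or lost peak under 5 and 3 definitions, for the 56 pathway genes (red) and all protein-coding genes (grey). Bars are Wilson 95% intervals. The red points for gained peaks lie between 23.2 and 67.9%, each above the grey point, and the lost ones lie between 8.93 and 19.6%.

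The share of genes with a gained peak stayed above that of coding genes under narrower definitions. With the nearest TSS alone it was 35 of 56 (62.5%) beside 31.1%, and with the gene body and 10 kb alone 28 of 56 (50%) beside 30.3%. For lost peaks these were 10 of 56 (17.9%) beside 9.62% and 5 of 56 (8.93%) beside 7.30%. Within 10 kb of the body, and also with the TSSs of all annotated genes (8.93% beside 8.16%), the lost share was thus near that of coding genes.

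Of the 94 gained peaks, 29 (30.9%, 22.4 to 40.8%) lay within 3 kb of a coding TSS, beside 23.1% of all gained peaks. The interval holds that share, and within 1 kb the shares were 17.0% and 16.8%. For some of the 29 the nearest TSS was a neighbour's, that of *Gm15217*, *Txndc5*, *Rbp3*, *Tmem63a* or *Shkbp1*. Values given below for the 29 include those peaks. Of the 94, 36 (38.3%, 29.1 to 48.4%) lay over 50 kb from every coding TSS, beside 26.1%. Of the 14 lost peaks none lay within 3 kb, beside 10.2% of all lost peaks, and the interval of 0 of 14 reaches 21.5%. The gained peaks of the pathway had a median score of 70 (range 21 to 376.5), beside 62.5 for the whole list. Within 3 kb of a coding TSS the medians were 138 and 122.5, and beyond it 64.5 and 54.5. The lost peaks had a median score of 35.5 (20.7 to 69.8), beside 36.8. The median GC content was 68.9% in the 29 gained peaks near a TSS, beside 63.6% in all gained peaks of that class, and 47.4% in the 14 lost peaks, beside 50.3%.

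**Figure D4:**
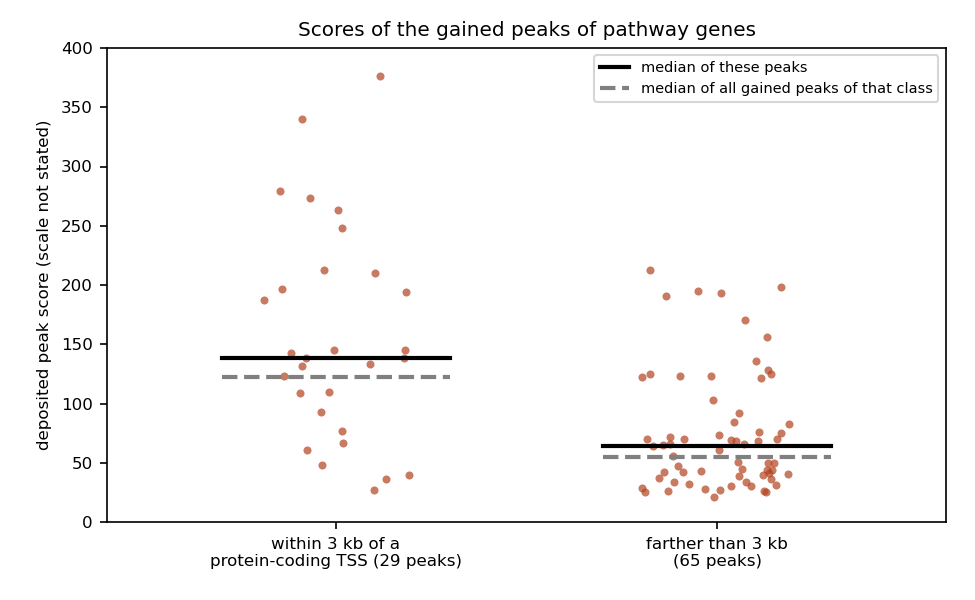
Deposited score (vertical axis, scale not stated) of the 94 gained peaks, 1 point each, split at 3 kb from the nearest coding TSS. Black lines are the medians of these peaks, 138 and 64.5, and dashed lines the medians of all gained peaks of that class, 122.5 and 54.5. The highest point is at 376.5 in the left column and at 212.5 in the right.

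Letters of known motifs were searched on both strands of each peak. GGGCGG was present in 25 of the 94 gained peaks (26.6%), beside 22.5% of all gained peaks, and in 17 of the 29 near a TSS (58.6%), beside 46.1%. CCAAT was present in 28.7%, beside 29.3%. Of the letters bound by SMAD proteins, the SMAD box CAGACA was present in 11.7%, beside 14.9%, GGCGCC in 5.32%, beside 4.16%, and the palindrome GTCTAGAC in none, beside 0.139%. Of the letters of other cardiac factors, AGATAA, of GATA factors, was present in 6.38%, beside 11.1%, AGGTGT (TBX) in 10.6%, beside 9.90%, ACATTCC (TEAD) in 4.26%, beside 3.76%, and TAAAAATA (MEF2) in 1.06%, beside 1.76%. TGANTCA (AP-1) was present in 1.06%, beside 5.08%, CAGCTG (E-box) in 10.6%, beside 13.2%, and the CTCF motif in none, beside 0.0616%. The counts were small, and for each of these letters the pathway's interval held the share of all gained peaks. For the shorter AP-1 letters TGANTC it did not, with 8.51% (4.38 to 15.9%) beside 19.0%. In the 14 lost peaks neither GGGCGG nor CCAAT was present, beside 2.95% and 12.4% of all lost peaks. A match is a description of the letters, not a bound site.

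**Figure D5:**
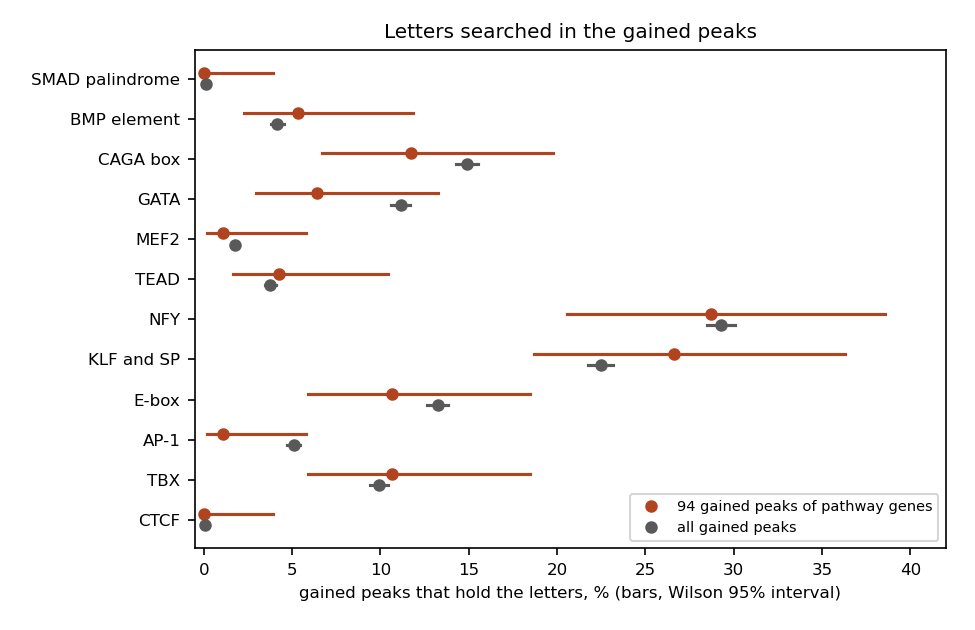
Share in percent (horizontal axis) of gained peaks that hold each motif's letters, for the 94 peaks of the pathway (red) and all 12991 gained peaks (grey), with Wilson 95% intervals as bars. NFY and KLF and SP lead in both sets, at 28.7 and 26.6% in the pathway's peaks.

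Of 61 other genes of the pathways, 32 (52.5%) had a gained and 11 (18%) a lost peak, beside 37.4% and 10.8% of coding genes. A gained peak within 3 kb of an own TSS was listed for 8 of them (13.1%), near the 12.4% of coding genes, and a lost one for 1. The 8 were 4 of 10 other receptors and co-receptors (40%), 3 of 23 other antagonists and extracellular modulators (13%) and 1 of 11 target genes. None was among the 5 other ligands or the 12 intracellular regulators. At any distance, gained peaks were listed for 0 of 5 other ligands, 9 of 10 other receptors and co-receptors and 8 of 23 other antagonists and extracellular modulators (34.8%). They were also listed for 7 of 12 intracellular regulators (58.3%) and 8 of 11 target genes (72.7%). The ligands and antagonists among these genes thus lay below or near the share of coding genes. Among the targets *Msx2* had 10 gained peaks and *Id2* 6, transcription regulators induced by BMPs, while *Id3* had none. *Pmepa1*, which encodes an inhibitor of TGF-beta signalling, had 5. The receptors and co-receptors with a gained peak within 3 kb of an own TSS were *Rgma*, *Hfe2*, *Eng* and *Acvrl1*. Their highest gained scores were 316.5, 175, 70 and 61.5.

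The genes that mark cell types of the heart are given beside the same 37.4% of coding genes with a gained and 10.8% with a lost peak. Of 12 cardiomyocyte genes, 9 (75.0%) had a gained and 1 (8.33%) a lost peak. Of 8 endothelial and endocardial genes these were 6 (75.0%) and 3 (37.5%), of 6 epicardial genes 3 (50%) and 4 (66.7%), of 6 cushion mesenchyme genes 4 (66.7%) and 3 (50%), and of 4 leukocyte genes 1 (25.0%) and 1. Of 6 erythroid genes, 0 had a gained and 5 (83.3%) a lost peak, 12 lost peaks in all. The other erythroid gene, *Klf1*, had neither, and the part of cell type shares in the peaks of the pathway was not tested.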

How the data were processed

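ATAC-seq was performed on E10.5 hearts, with 4 samples per genotype (WT and *Chd4-CMko*). Per the labels and the study's methods, the authors used BWA-MEM for alignment (mm10), HOMER (4.10.3) for peaks with a 2-fold limit, and ChIPseeker (1.20.0) for annotation. Read filters, duplicates, any Tn5 shift and the way samples were combined are not stated in the sources used here, and each can change which peaks pass. The value deposited is a peak score, on a scale that is not stated and with different steps in the 2 lists. It was described only within a list, except in 1 alternative that sets a common score limit and so assumes a common scale. The lists hold no read counts and no replicate error, and no test was made.

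Peaks were assigned to genes with Python (3.11.15) from GENCODE M21, taking every transcript start of a protein-coding gene as a TSS, and sequence was read from GRCm38. The assignment was tested on simulated peaks. Wilson intervals were computed with SciPy (1.17.1). Alternatives were the rule for a gene's peaks, the TSS set, the score limit, the window and the letters of each motif. Genes with a peak near an own TSS, with both kinds of peak, with the highest scores, the most peaks or a lost peak are given with the score of each peak. Of the sequences of peaks near a TSS, a subset is printed. The members and lists were chosen with earlier results of these data known.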

Additional observations from a re-analysis of the deposited data

How the results depend on the processing

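The number of genes with a gained peak lay between 28 (50%, beside 30.3% of coding genes, with the gene body and 10 kb alone) and 50 (89.3%, beside 56.7%, with a window of 50 kb or the nearest TSS), and the gained share of peaks between 82.1 and 91.7%. With the gene body and 10 kb alone there were 5 genes with a lost peak (8.93%, beside 7.30% of coding genes), 49 gained and 7 lost peaks, and 59.2% of gained peaks lay within 3 kb of a coding TSS. With the TSSs of all annotated genes these were 5 (8.93%, beside 8.16%), 55, 7 and 52.7%. With 1 TSS per gene there were 15 genes with a lost peak (26.8%, beside 11.8%) and 22 lost peaks, and 18.8% of gained peaks lay near a TSS, beside 14% of all gained peaks. With the window of 50 kb, 14 genes had a lost peak (25%, beside 16%). With only peaks at or above their list's median score there were 6 genes with a lost peak (10.7%, beside 6.10%), 57 gained and 7 lost peaks, and 42.1% near a TSS. The 59.2, 52.7 and 42.1% have no share of all gained peaks in the same setting beside them. A 10 kb window leaves out far peaks. Gained peaks near a coding TSS also score higher in the whole list, with medians of 122.5 and 54.5 within and beyond 3 kb. Such shares can thus rise for any set of genes. With 1 score limit for both lists, which assumes a common scale and gives the 91.7%, there were 6 genes with a lost peak (10.7%, beside 6.10%) and 7 lost peaks. With 1 kb in place of 3 kb, 12 genes had a gained peak near an own TSS (21.4%, beside 9.23% of coding genes), so the gap in genes remained. Of gained peaks, 17.0% were near a coding TSS, beside 16.8% of all gained peaks, so the gap in peaks seen at 3 kb was gone. Apart from those of CTCF, shorter letters matched more gained peaks than the longer ones did, given for the pathway beside all gained peaks: CAGAC 38.3%, beside 34.0%, GGCGC 17.0%, beside 16.1%, GATAA 16.0%, beside 21.1%, CATTCC 11.7%, beside 11.4%, CAAT 48.9%, beside 49.97%, CANNTG 47.9%, beside 55.0%, TGANTC 8.51%, beside 19.0%, GGTGT 36.2%, beside 30.6%, GGCGG 33.0%, beside 32.0%, and TAAAAAT 2.13%, beside 2.21%. The shorter CTCF letters matched none of the pathway's gained peaks, beside 0.431%. The short form set for the SMAD palindrome, GTCTG, is the reverse complement of CAGAC and so the same search, and it is no part of the palindrome. Motifs aside, 47 of 65 alternative values stayed, a count within 1.5 times the value given and a share within its interval. These include 13 in place of 19 genes with a gained peak near an own TSS, with 1 TSS per gene (23.2%, beside 8.19% of coding genes). The set of TSSs of protein-coding transcripts was chosen after seeing the data and moved none. No paired analysis was possible because the lists pool the samples and no result comes from a test. The lists hold no read counts, so a gene with no listed peak may lie below the authors' limits.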
